A study of Mus musculus with 7 samples.

Results

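The genes described here are the TNF superfamily of ligands and the TNF receptor superfamily, taken by gene name from the array: every name that begins with Tnfsf or Tnfrsf, plus Tnf, Lta, Ltb, Ltbr, Cd27, Cd70, Cd40, Cd40lg, Fas and Fasl. This gave 40 member names of the 34797 names on the array, 16 of them ligands and 24 receptors. Of the members, 26 were measured well enough to be tested and 14 were not, and all 40 are accounted for below.

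The ligands of this family are small trimeric proteins that sit in the membrane of one cell or are cut free from it, and the receptors are single-pass membrane proteins that they cluster. Most receptors recruit TRAF adaptors and turn on the transcription factor NF-kB, and receptors with a death domain can also recruit FADD and caspase-8 and kill the cell. In T cells several receptors, such as CD27, OX40 and DR3, add a co-stimulatory signal to that of the T cell receptor, and the lymphotoxins that lymphocytes make help to form and maintain lymph nodes. BAFF receptor and TACI are best known from B cells, where both bind the ligand BAFF and TACI also binds APRIL.

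Total RNA of naive CD8 T cells from mouse lymph nodes was measured on 7 single-colour arrays, of which 3 held WT samples and 4 held samples of the group called Lck-off. All cells were sorted as CD8b+ and CD44low, and all mice carried the OT-1 T cell receptor transgene in heterozygous form on a Rag-/- background; OT-1 recognises a peptide of ovalbumin. The Lck-off mice were also Lck-/- and carried a knocked-in Lck that is expressed while doxycycline is given; doxycycline had been left out of their diet for 7 days. Lck is the tyrosine kinase that starts signalling from the T cell receptor. Neither the labels nor the series text gives the WT diet, the ages of the mice or the promoter that drives the inducible Lck, and mice of the Lck-off genotype still on doxycycline were not measured. Genotype, diet and loss of Lck therefore cannot be told apart. The samples are called biological replicates; whether each came from 1 animal is not given, and the p-values measure the spread between these samples.

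Levels below are log2 intensities relative to the 75th percentile of intensity on the same array, so that a level of 0 equals that percentile and a difference of 1 is a 2-fold change. That percentile lay between 208 and 243 intensity units, 42.5% to 48.6% of probes were well above background, and 0 spots were saturated. Correlations between arrays were 0.990 to 0.995 within groups and 0.983 to 0.987 between groups. The Lck probe read 8.99, 9.02 and 8.98 in WT against 8.52, 8.83, 8.60 and 8.55 in Lck-off, which is 77.2% of WT (difference -0.37, SE 0.09, limma adjusted p = 0.0493). The groups did not overlap, but the call was lost in 6 of 7 fits that left out 1 array, with adjusted p up to 0.154, and stood without Lck-off replicate 2. The part of Lck that the mutant allele lacks, and whether this probe reads the inducible copy, are not stated in the labels, so this value does not check the labels. The markers of CD8 T cells were all measured, 13 of 13, and 0 were called by limma. The unadjusted p was under 0.05 for 3 of them, and for 21.5% of all genes tested. In bulk RNA, fewer cells of a type and less RNA per cell cannot be told apart.

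Across the family, 2 ligands rose and 4 receptors fell in Lck-off. The lymphotoxin genes Lta and Ltb were higher, at 137% and 127% of WT. Tnfrsf13c, which encodes BAFF receptor, was lower at 38.9% of WT, and Tnfrsf25 (DR3), Tnfrsf1b (TNFR2) and Tnfrsf13b (TACI) were at 59.1%, 61.0% and 62.3%. These 6 of 26 measured members passed an adjusted p of 0.05 by limma, with adjustment over all 18231 genes, of which 8.38% passed. Among all genes 3.8% were called higher and 4.57% lower. The median difference of the measured members was 0.08, against -0.01 over all genes, and the members ranged from -1.36 to 0.89. Groups that did not overlap were found for 11 members, 7 higher and 4 lower. Over all genes the groups did not overlap for 21.8%, 9.8% higher and 12% lower. The unadjusted p by limma was under 0.05 for 12 members, and for 21.5% of all genes. That share is the one to hold beside such counts below. Tnfrsf13c differed by more than 2-fold, and by less with normexp or in the authors' deposited table (-0.67 and -0.60); no other measured member reached 2-fold.

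Among the 8 measured ligands 2 were called, both higher, and the median difference was 0.33. Among the 18 measured receptors 4 were called, all lower, and the median difference was 0.02. Under other settings receptors were also called higher, Cd27 in 7 of 13 and Tnfrsf23 in 4 of 13. Whether ligands and receptors differed from each other was not tested.

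**Figure D1:**
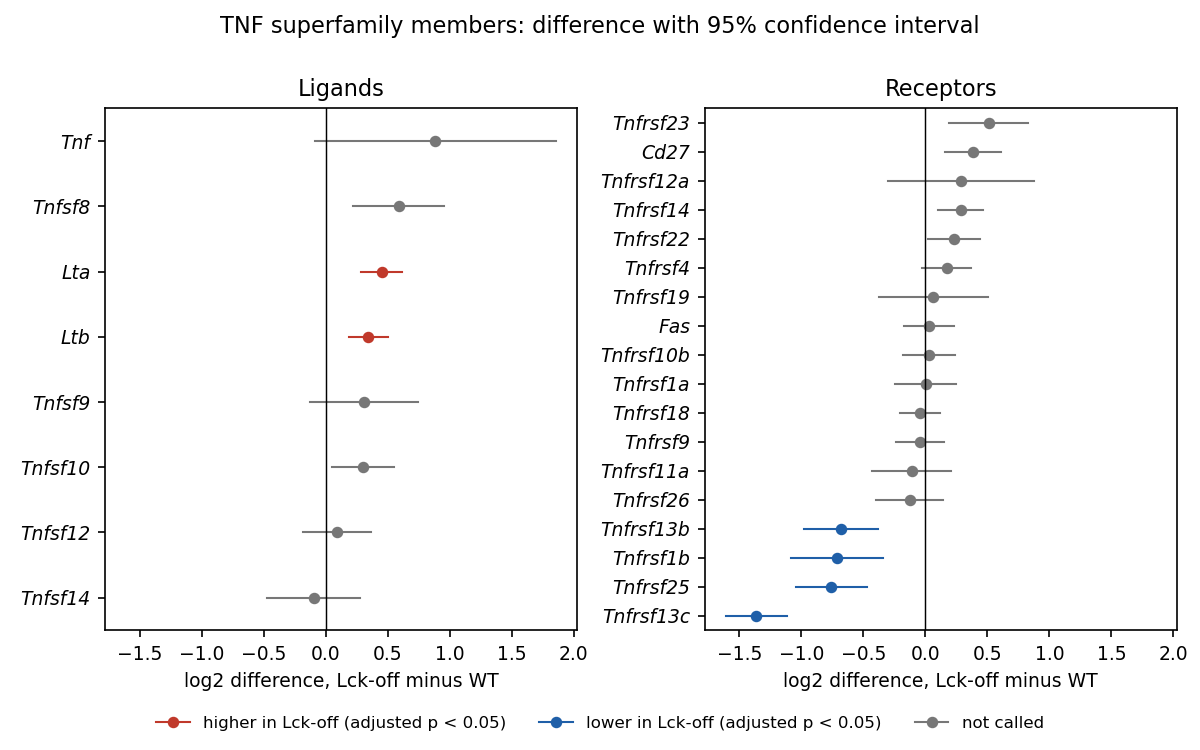
Difference in level between Lck-off and WT (log2, x axis) for the 8 measured ligands (left) and the 18 measured receptors (right); points are limma estimates from 3 WT and 4 Lck-off arrays, bars their 95% confidence intervals, and colours mark calls at an adjusted p under 0.05. Lta and Ltb are the ligands called higher, and the 4 receptors called lower lie at the bottom, with Tnfrsf13c lowest at -1.36.

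Ligands of the lymphotoxin and TNF group bind the TNF receptors, the lymphotoxin beta receptor and HVEM. All 4 were measured: Lta, Ltb and Tnf, which lie side by side in the class III region of the major histocompatibility complex, and Tnfsf14, which encodes LIGHT. Of these, 2 were called higher and 0 lower.

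Lta encodes lymphotoxin alpha, which acts as a secreted homotrimer or joins lymphotoxin beta in a membrane heterotrimer. The Lta probe (mm9 chr17:35340275-35340334, minus strand) read 1.22, 1.08 and 1.22 in WT against 1.70, 1.62, 1.59 and 1.60 in Lck-off. Every Lck-off array lay above every WT array. The means were 1.18 ± 0.08 (SD, n = 3) and 1.63 ± 0.05 (SD, n = 4). The difference was 0.45 (SE 0.07, 95% confidence interval 0.28 to 0.62, limma adjusted p = 0.00906). No other of the 35 possible splits of the arrays gave as large a difference (exact permutation test, two-sided, p = 0.0286, the smallest that this design allows). The call was kept in all 7 fits that left out 1 array, with adjusted p from 0.0228 to 0.0431. It was lost with no filter on dim probes (adjusted p = 0.0704).

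Ltb encodes lymphotoxin beta, which anchors the heterotrimer in the membrane. The Ltb probe (mm9 chr17:35333097-35333156, plus strand) read 8.63, 8.66 and 8.53 in WT against 8.90, 8.98, 8.94 and 8.99 in Lck-off. Neither group reached into the other, and both were tight, with means of 8.61 ± 0.07 (SD, n = 3) and 8.95 ± 0.04 (SD, n = 4). The difference was 0.35 (SE 0.07, 95% confidence interval 0.19 to 0.50, limma adjusted p = 0.0226). The exact permutation p was 0.0286. The call was lost in 6 of 7 fits that left out 1 array, with adjusted p up to 0.0742, and stood without Lck-off replicate 1.

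Tnf, which encodes the inflammatory cytokine that gives the family its name, lies between Ltb and Lta and had the largest SD within each group of the measured members. It read 0.00, 0.98 and 1.24 in WT against 0.84, 1.99, 1.39 and 2.28 in Lck-off. WT replicate 1 and Lck-off replicate 1 were the lowest of their groups, and the groups overlapped. The difference of 0.89 had a 95% confidence interval from -0.09 to 1.86 (SE 0.41, limma adjusted p = 0.278, exact permutation p = 0.143). This interval holds the differences of Lta and Ltb as well as 0. Tnfsf14 differed by -0.10 (95% confidence interval -0.47 to 0.27).

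The promoters of Ltb and Tnf, from the same locus, are shown. Ltb was called and Tnf was not, though the fitted difference of Tnf was the larger (0.89 against 0.35). Printed are the 250 bases before the RefSeq gene start on GRCm38.p6, 5′ to 3′ on the gene's own strand: chr17:35194257-35194506 on the plus strand for Ltb and chr17:35202008-35202257 on the minus strand for Tnf. Capitals mark matches, on either strand, to GGNNTTTCC (a core like that bound by NF-kB) or TTCNNNGAA (a core like that bound by STAT factors), where N is any base.
Ltb: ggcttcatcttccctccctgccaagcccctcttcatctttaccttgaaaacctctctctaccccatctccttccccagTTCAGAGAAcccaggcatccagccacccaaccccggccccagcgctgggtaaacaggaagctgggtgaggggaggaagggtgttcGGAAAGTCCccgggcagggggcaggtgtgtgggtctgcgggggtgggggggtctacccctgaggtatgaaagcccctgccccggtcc
Tnf: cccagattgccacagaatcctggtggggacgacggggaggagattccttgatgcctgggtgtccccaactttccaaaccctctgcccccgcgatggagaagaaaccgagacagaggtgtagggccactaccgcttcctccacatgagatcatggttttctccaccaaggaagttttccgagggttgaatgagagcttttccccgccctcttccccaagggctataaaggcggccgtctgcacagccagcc
The Ltb window held GGNNTTTCC on the reverse strand, beginning 87 bases before the start, and TTCNNNGAA beginning 172 bases before it. The Tnf window held no match to either, nor to GAAANNGAA, a core like that of interferon response elements. The window of Lta, which was called, is not printed and precedes a start other than the RefSeq gene start. It held no match to GGNNTTTCC or GAAANNGAA, and 2 to TTCNNNGAA, beginning 152 and 16 bases before that start. Among all 32851 RefSeq windows of 250 bases, 4.93% held GGNNTTTCC, 7.02% held TTCNNNGAA and 7.13% held GAAANNGAA. Windows were found for 30 of the 40 members, 34 in all; 4 held GGNNTTTCC (11.8%, those of Ltb, Tnfrsf13b, Tnfrsf25 and Tnfrsf9), 8 held TTCNNNGAA (23.5%) and 6 held GAAANNGAA (17.6%). Matches to different motifs may share bases, and some windows belong to the same gene. A match is a description of letters and not a binding site.

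The neighbourhood of the locus can be read from the probe positions. The Lta and Ltb probes lay 7.18 kb apart. Within 100 kb of the Tnf probe 20 genes were measured, and 4 were called, all higher. Lta and Ltb, which lie beside the Tnf probe that the window was centred on, are among them. Without Lta and Ltb, 2 of 18 were called (11.1%, against 8.38% of all genes). These were Aif1, a calcium-binding protein of macrophages, with a difference of 0.94 (SE 0.20, limma adjusted p = 0.0281), and H2-D1, a class I histocompatibility molecule, with 0.47 (SE 0.06, limma adjusted p = 0.00394). Whether the H2-D1 probe also reads related class I genes was not tested. The other 16 genes, Tnf included, were not called.

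The co-stimulatory ligands are made mostly by antigen-presenting or activated cells. Of 7 on the array, 2 were measured and 0 were called by limma, with 1 at an unadjusted p under 0.05. Tnfsf8 encodes CD30 ligand. It read 2.01, 1.82 and 1.49 in WT against 2.10, 2.31, 2.55 and 2.49 in Lck-off. The groups did not overlap, though Lck-off replicate 1 and WT replicate 1 were close. The difference of 0.59 (SE 0.16, 95% confidence interval 0.22 to 0.96) did not pass the threshold (limma adjusted p = 0.0677, exact permutation p = 0.0571). It passed without Lck-off replicate 1 (adjusted p = 0.0479). Tnfsf9, the ligand of the receptor encoded by Tnfrsf9, differed by 0.31 (95% confidence interval -0.12 to 0.74).

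Of the ligands linked to cell death, 2 of 3 were measured, 0 were called by limma and 1 had an unadjusted p under 0.05. Tnfsf10 encodes TRAIL, which can trigger apoptosis through death receptors. It read 1.97, 1.99 and 1.84 in WT against 2.36, 2.00, 2.26 and 2.32 in Lck-off. The groups did not overlap, but Lck-off replicate 2 lay next to the highest WT array. The difference was 0.30 (SE 0.11, 95% confidence interval 0.05 to 0.55, limma adjusted p = 0.148, exact permutation p = 0.0571). Without Lck-off replicate 2 it was called, with an adjusted p of 0.0397. Tnfsf12, which encodes TWEAK, differed by 0.09 (95% confidence interval -0.18 to 0.36).

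**Figure D2:**
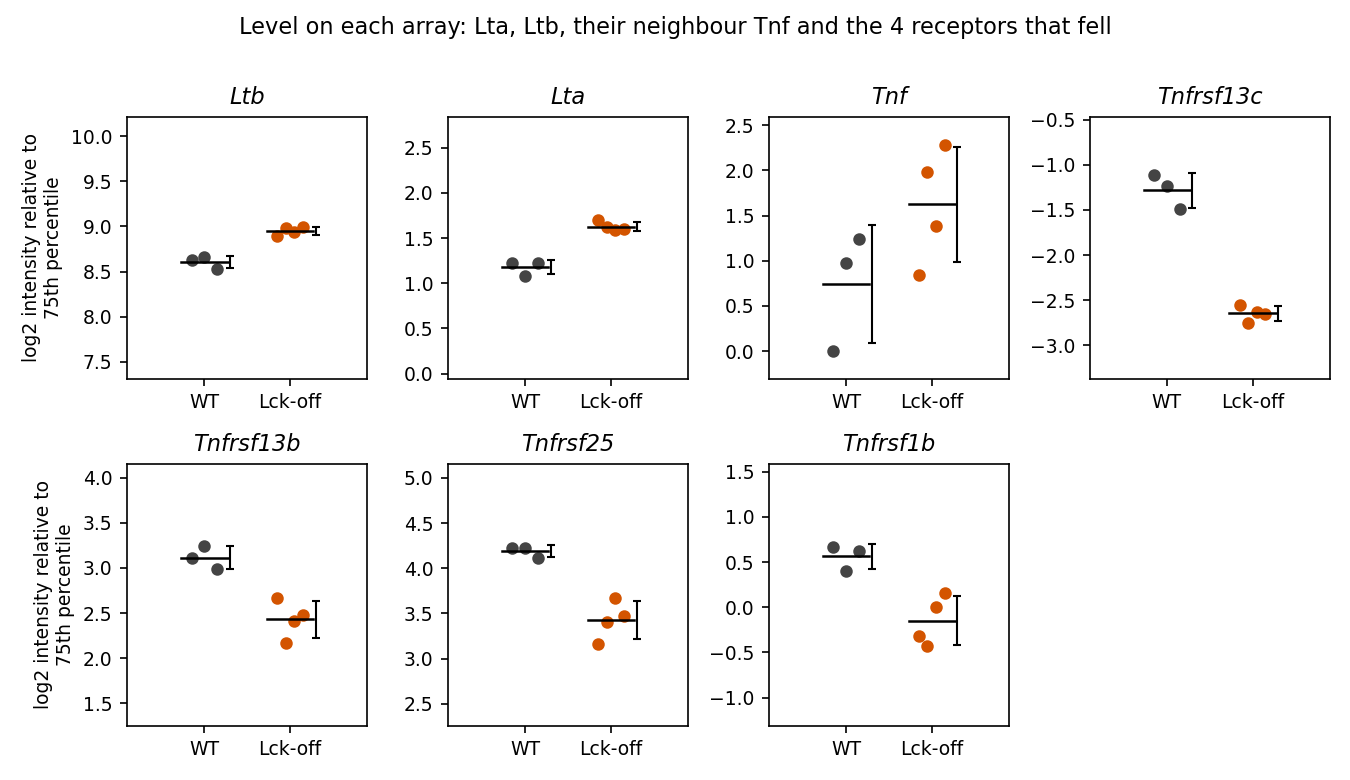
Level on each array (log2 intensity relative to the array's 75th percentile, y axis; all panels span the same number of log2 units) for Lta, Ltb, Tnf and the 4 receptors that fell. Points are arrays (3 WT, 4 Lck-off), lines group means and bars SD; the groups overlap for Tnf and not for the other 6 genes.

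Of the 4 receptors best known from B cells and bone, 3 were measured, and 2 were called, both lower. Tnfrsf13c encodes BAFF receptor. Its probe (mm9 chr15:82052203-82052262, minus strand) read -1.12, -1.24 and -1.49 in WT against -2.55, -2.75, -2.63 and -2.65 in Lck-off. The groups were far apart, with means of -1.28 ± 0.19 (SD, n = 3) and -2.64 ± 0.08 (SD, n = 4). The difference was -1.36 (SE 0.10, 95% confidence interval -1.61 to -1.12, limma adjusted p = 0.000678, exact permutation p = 0.0286). The call was kept in all 7 fits that left out 1 array, with adjusted p from 0.00187 to 0.00423. The size of the difference of this dim probe changed with the processing. It was -0.67 with normexp and -0.60 in the authors' deposited table, called under both (adjusted p = 0.000385 and 0.000386). Tnfrsf25 fell more than Tnfrsf13c under both, at -0.72 and -0.73. The other Tnfrsf13c probe was not well above background on any array.

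Tnfrsf13b encodes TACI, another receptor for BAFF, which also binds APRIL. Its probe (mm9 chr11:60962770-60962829, plus strand) read 3.11, 3.24 and 2.98 in WT against 2.66, 2.17, 2.41 and 2.47 in Lck-off. All Lck-off arrays were below all WT arrays, with Lck-off replicate 1 the nearest to them. The means were 3.11 ± 0.13 (SD, n = 3) and 2.43 ± 0.20 (SD, n = 4). The difference was -0.68 (SE 0.13, 95% confidence interval -0.98 to -0.38, limma adjusted p = 0.0186, exact permutation p = 0.0286). The call was lost in 4 of 7 fits that left out 1 array, those without WT replicate 1, WT replicate 2, Lck-off replicate 3 or Lck-off replicate 4, with adjusted p up to 0.0746. A second probe, nearer the 5′ end of the transcript, differed by -0.28 (SE 0.16, adjusted p over all probes = 0.396). The mean of both probes was not called (-0.48, adjusted p = 0.0773).

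The B cell markers were read beside these receptors. Of 10 markers 4 were measured, and 0 were called by limma, with 0 at an unadjusted p under 0.05; their median difference was -0.05. Ebf1, Ms4a1 and Pax5, which help to define B cells, were never well above background. The summed B cell marker level, on a linear scale relative to the 75th percentile, was 12.4 to 14.6 in WT and 12.1 to 15.0 in Lck-off, so that the groups overlapped. Most of this sum was Cd79b, which differed by -0.08 (SE 0.10) and was not called. The sum therefore says little about the dimmer markers of this list. Tnfrsf11a, which encodes the bone receptor RANK, differed by -0.11 (95% confidence interval -0.43 to 0.21). Tnfrsf17, the plasma cell receptor BCMA, was never well above background on any array.

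Among receptors for TNF, lymphotoxin and LIGHT, 3 of 4 were measured and 1 was called, lower. Tnfrsf1b encodes TNFR2, the TNF receptor without a death domain that T cells use for co-stimulation. Its probe (mm9 chr4:144802359-144802418, minus strand) read 0.67, 0.41 and 0.62 in WT against -0.32, -0.43, 0.00 and 0.16 in Lck-off. The Lck-off arrays were spread more widely than the WT arrays but stayed below them. The means were 0.56 ± 0.14 (SD, n = 3) and -0.15 ± 0.27 (SD, n = 4). The difference was -0.71 (SE 0.16, 95% confidence interval -1.08 to -0.34, limma adjusted p = 0.0348, exact permutation p = 0.0286). The call was lost in 6 of 7 fits that left out 1 array, with adjusted p up to 0.114, and stood without Lck-off replicate 4.

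Tnfrsf1a encodes TNFR1, the TNF receptor with a death domain. It read 3.00, 3.22 and 3.16 in WT against 3.31, 3.13, 3.14 and 2.94 in Lck-off. The groups overlapped throughout. The difference was 0.00 (SE 0.11, 95% confidence interval -0.24 to 0.25, limma adjusted p = 0.994). Tnfrsf14, which encodes HVEM, read -0.31, -0.46 and -0.38 in WT against -0.10, -0.13, 0.03 and -0.17 in Lck-off. Every Lck-off array was higher, yet the difference of 0.29 (SE 0.08, 95% confidence interval 0.11 to 0.47) was not called (limma adjusted p = 0.0709, exact permutation p = 0.0286). A second Tnfrsf14 probe differed by -0.06 (SE 0.19). Ltbr, the lymphotoxin beta receptor of stromal and myeloid cells, was not well above background on any array.

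The promoters of Tnfrsf13c and Tnfrsf1b are shown as those of receptors that fell. Both are the 250 bases before the RefSeq gene start on GRCm38.p6, 5′ to 3′ on the gene's minus strand, from chr15:82224381-82224630 and chr4:145246871-145247120. Capitals mark matches on either strand to TTCNNNGAA or GAAANNGAA.
Tnfrsf13c: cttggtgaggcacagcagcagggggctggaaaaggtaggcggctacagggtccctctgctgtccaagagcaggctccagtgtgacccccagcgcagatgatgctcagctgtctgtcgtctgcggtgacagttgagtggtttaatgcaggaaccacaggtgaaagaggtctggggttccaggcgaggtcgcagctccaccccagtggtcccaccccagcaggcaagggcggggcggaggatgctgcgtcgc
Tnfrsf1b: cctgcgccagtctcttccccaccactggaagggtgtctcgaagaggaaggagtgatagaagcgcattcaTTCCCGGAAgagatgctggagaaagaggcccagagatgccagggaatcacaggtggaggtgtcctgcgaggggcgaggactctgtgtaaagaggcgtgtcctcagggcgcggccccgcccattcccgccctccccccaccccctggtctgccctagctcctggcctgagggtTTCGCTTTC
The Tnfrsf13c window held no match to any of the 3 motifs. The Tnfrsf1b window held TTCNNNGAA beginning 181 bases before the start and GAAANNGAA, on the reverse strand, beginning 9 bases before it.

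Co-stimulatory receptors of T cells were mostly measured, 5 of 7, and 1 was called, lower. Tnfrsf25 encodes DR3, the receptor for the ligand encoded by Tnfsf15. Its probe (mm9 chr4:151494160-151494219, plus strand) read 4.22, 4.23 and 4.11 in WT against 3.16, 3.40, 3.68 and 3.47 in Lck-off. All Lck-off arrays were lower than WT, and Lck-off replicate 1 was lowest. The means were 4.19 ± 0.07 (SD, n = 3) and 3.43 ± 0.21 (SD, n = 4). The difference was -0.76 (SE 0.12, 95% confidence interval -1.05 to -0.47, limma adjusted p = 0.0101, exact permutation p = 0.0286). The call was kept in all 7 fits that left out 1 array, with adjusted p from 0.0106 to 0.0457. It was lost with no filter on dim probes (adjusted p = 0.0507).

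Cd27 encodes a receptor that naive T cells carry and that binds CD70. It read 3.62, 3.73 and 3.86 in WT against 4.30, 4.05, 4.06 and 4.06 in Lck-off. All Lck-off arrays were above all WT arrays. The difference of 0.38 (SE 0.10, 95% confidence interval 0.16 to 0.61) just missed the threshold (limma adjusted p = 0.0563, exact permutation p = 0.0286). A second Cd27 probe gave the same difference, 0.38 (SE 0.09, adjusted p over all probes = 0.0471).

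The other co-stimulatory receptors had narrower intervals around smaller differences. Tnfrsf4 encodes OX40 and differed by 0.17 (95% confidence interval -0.02 to 0.37). Tnfrsf18, which encodes GITR, read 5.04, 4.88 and 4.89 in WT against 4.86, 4.87, 4.92 and 4.91 in Lck-off, and the groups overlapped. Its difference was -0.04 (95% confidence interval -0.21 to 0.12). Tnfrsf9, an activation-induced receptor of T cells, differed by -0.05 (95% confidence interval -0.24 to 0.15).

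TNFR1 and DR3, which have death domains, are described above. Receptors for Fas ligand, TRAIL and TWEAK form the next group, with Tnfrsf21. Of these 4 members 3 were measured, 0 were called by limma, and 0 had an unadjusted p under 0.05. Fas, the receptor through which Fas ligand kills lymphocytes, read 2.45, 2.47 and 2.44 in WT against 2.30, 2.50, 2.59 and 2.55 in Lck-off. The groups overlapped, with Lck-off replicate 1 below WT and the other Lck-off arrays above it. The difference was 0.03 (95% confidence interval -0.17 to 0.24). Tnfrsf10b, the mouse TRAIL receptor, differed by 0.03 (95% confidence interval -0.18 to 0.24). Tnfrsf12a, the receptor for TWEAK, differed by 0.29 with a wider interval, -0.30 to 0.88.

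The decoy group holds Tnfrsf22 and Tnfrsf23, decoy receptors for TRAIL in the mouse, their neighbour Tnfrsf26, and Tnfrsf11b, the soluble decoy receptor for RANK ligand. Tnfrsf22 and Tnfrsf23 are close relatives, and whether their probes read each other was not tested. Of 4 members 3 were measured and 0 were called by limma, with 2 at an unadjusted p under 0.05. Tnfrsf23 read -0.32, -0.48 and -0.21 in WT against 0.19, 0.42, 0.21 and -0.12 in Lck-off. The groups did not overlap, but Lck-off replicate 4 was near WT. The difference was 0.51 (SE 0.14, 95% confidence interval 0.19 to 0.83, limma adjusted p = 0.0671, exact permutation p = 0.0571). Without Lck-off replicate 4 it was called (adjusted p = 0.0316). Tnfrsf22 read -0.85, -1.11 and -1.16 in WT against -0.86, -0.80, -0.76 and -0.81 in Lck-off. WT replicate 1 lay among the Lck-off arrays. The difference was 0.23 (SE 0.09, 95% confidence interval 0.02 to 0.44, limma adjusted p = 0.196, exact permutation p = 0.0571).

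Tnfrsf26, a neighbour of Tnfrsf22 and Tnfrsf23 on chromosome 7, differed by -0.13 (95% confidence interval -0.40 to 0.15). Tnfrsf19, the remaining measured receptor, was well above background on 3 of 4 Lck-off arrays and 3 of 3 WT arrays and differed by 0.07 (95% confidence interval -0.38 to 0.51).

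**Figure D3:**
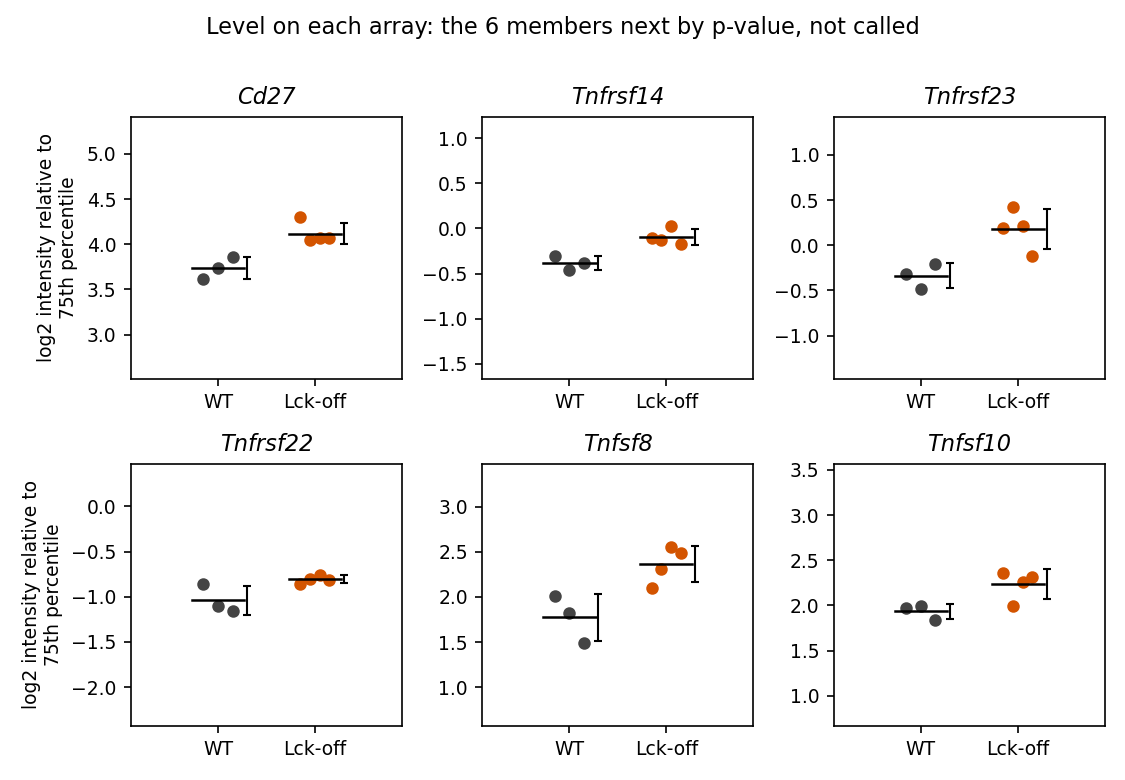
Level on each array (log2 intensity relative to the array's 75th percentile, y axis; all panels span the same number of log2 units) for the 6 members with the next smallest p-values, none of them called. Points are arrays (3 WT, 4 Lck-off), lines group means and bars SD; the group means are higher in Lck-off for all 6, and the groups overlap for Tnfrsf22.

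The 14 members that were not tested had dim probes. Not well above background on any of the arrays were 12 of them. They include the ligands Cd40lg, Cd70, Fasl, Tnfsf4 (OX40 ligand), Tnfsf18 (GITR ligand) and Tnfsf11 (RANK ligand). They also include the receptors Cd40, Ltbr, Tnfrsf8 (CD30), Tnfrsf11b (osteoprotegerin), Tnfrsf17 and Tnfrsf21 (DR6). Tnfsf13b, which encodes BAFF, was well above background on 1 WT array, where it read -2.31, against -5.82 and -6.32 on the other WT arrays. Tnfsf15, the ligand of DR3, was well above background on Lck-off replicate 2 alone, at -3.71. These probes allow no statement on a difference between the groups.

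All arrays were on 1 slide in rows 1 and 2, and each row held both groups: WT replicate 3 with Lck-off replicates 2 and 3 in row 1, the rest in row 2. Within rows 1 and 2 the differences were -1.20 and -1.42 for Tnfrsf13c, 0.38 and 0.50 for Lta, and 0.43 and 0.30 for Ltb. For Tnfrsf25 they were -0.57 and -0.91, for Tnfrsf13b -0.70 and -0.61, and for Tnfrsf1b -0.83 and -0.62. All 6 kept their direction in both rows, and none was called within a row by limma. Row 1 held 1 WT array, which is assumed there to vary like the Lck-off arrays, so its tests say little. In row 2 the unadjusted p by limma was under 0.05 for 5 higher and 4 lower members. Over all genes it was under 0.05 for 1076 higher and 1635 lower in that row. With no filter on dim probes Tnfrsf13c stayed called (adjusted p = 0.00588), and Tnfrsf13b, Ltb and Tnfrsf1b were lost (adjusted p = 0.0831, 0.149 and 0.129). With the row as a block, 5 of the 6 stayed called, with adjusted p of 0.00168 for Tnfrsf13c, 0.0222 for Lta, 0.0209 for Tnfrsf25, 0.0156 for Tnfrsf13b and 0.0394 for Ltb. Tnfrsf1b was lost with the row as a block (adjusted p = 0.0681).

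Several receptor genes share the far end of chromosome 4, the chromosome that also carries Lck. On mm9, the Tnfrsf1b, Tnfrsf9, Tnfrsf25, Tnfrsf14, Tnfrsf4 and Tnfrsf18 probes lay 15.6, 21.1, 22.3, 25.1, 26.2 and 26.2 Mb from the Lck probe, in that order. Of these 6, Tnfrsf1b and Tnfrsf25 were lower and the others were not called. Between 144 and 156 Mb of chromosome 4, an interval set to hold these members, 29 of 185 measured genes were called (15.7%, against 8.38% of all genes), 16 higher and 13 lower. The part of position in these results was not tested. The called members on other chromosomes were Tnfrsf13c on 15, Tnfrsf13b on 11, and Lta and Ltb on 17.

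The proteins that act with TNF receptors were described from 5 lists of 67 genes on the array, of which 64 were measured. Of these, 6 were called, 5 higher and 1 lower, which is 9.38% against 8.38% of all genes. Mlkl, among the 6, passed the filter on dim probes through the Lck-off arrays. Over genes well above background on at least 2 arrays of each group, 5 of 62 were called (8.06%), against 8.14% of all such genes. The median difference of the 64 was 0.06.

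The adaptors, kinases and ubiquitin ligases that carry the signal were all measured, and 1 of 22 was called. Traf1, a TRAF adaptor that is itself a target of NF-kB, read 5.16, 5.12 and 5.28 in WT against 5.47, 5.81, 5.65 and 5.64 in Lck-off. All Lck-off arrays were higher. The difference was 0.46 (SE 0.10, limma adjusted p = 0.0284), and the call was lost in 5 of 7 fits that left out 1 array, with adjusted p up to 0.109. It stood without Lck-off replicate 1 or 2. Of the NF-kB subunits 5 of 6 were measured and 0 were called by limma, with 1 at an unadjusted p under 0.05. This was Relb, the subunit of the non-canonical pathway that lymphotoxin turns on, with a difference of 0.21 (SE 0.07, limma adjusted p = 0.126).

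The list of brakes on the pathway, which also holds the shedding protease Adam17, had 13 measured genes, of which 2 were called higher and 1 lower. Tnip2, which binds the ubiquitin editor A20, read 1.25, 1.12 and 1.37 in WT against 0.32, 0.54, 0.40 and 0.38 in Lck-off. All Lck-off arrays were far below WT. The difference was -0.84 (SE 0.09, limma adjusted p = 0.00199), called in all 7 fits that left out 1 array. Tnip1, a related A20-binding protein, read 5.77, 5.96 and 5.88 in WT against 6.31, 6.41, 6.23 and 6.39 in Lck-off. It moved the other way, with a difference of 0.46 (SE 0.08, limma adjusted p = 0.0136), and lost its call without WT replicate 1 (adjusted p = 0.0504). Nfkbie, an inhibitor that holds NF-kB in the cytoplasm, read 2.41, 2.41 and 2.43 in WT against 2.66, 2.96, 2.87 and 2.91 in Lck-off. The difference was 0.43 (SE 0.09, limma adjusted p = 0.0259), and the call was lost in 6 of 7 fits that left out 1 array, with adjusted p up to 0.0928; it stood without Lck-off replicate 1. Tnfaip3, the gene of A20 itself, differed by 0.24 (95% confidence interval -0.33 to 0.81).

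Of the 12 cell death genes, 11 were not called. Mlkl, the pore-forming protein of necroptosis, was well above background on 1 of 3 WT arrays and on 4 of 4 Lck-off arrays. It read -3.63, -3.04 and -4.03 in WT against -2.72, -1.36, -2.31 and -1.86 in Lck-off, so that the groups did not overlap. It passed the filter through the Lck-off arrays, where it was higher, so its call gives no support to a difference. The fitted difference of 1.50 (SE 0.36, limma adjusted p = 0.0456) rests on WT readings that were mostly not above background. The call was lost in 6 of 7 fits that left out 1 array, with adjusted p up to 0.145, and stood without Lck-off replicate 1. The difference was 0.44 with normexp (adjusted p = 0.0795) and 0.50 in the authors' deposited table (adjusted p = 0.0413). Ripk3, the kinase that activates MLKL, did not pass, at -0.36 (SE 0.09, limma adjusted p = 0.0578).

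Target genes of TNF signalling gave 1 called gene of 12 measured, higher. Cxcl10, a chemokine that interferons also induce, read -2.96, -0.99 and -1.27 in WT against 1.35, 0.74, 1.38 and 2.12 in Lck-off. All Lck-off arrays were above all WT arrays, and WT replicate 1 was the lowest. The difference was 3.14 (SE 0.51, limma adjusted p = 0.0107), called in all 7 fits that left out 1 array. It was 2.17 with normexp and 2.15 with the values of the authors' deposited table.

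**Figure D4:**
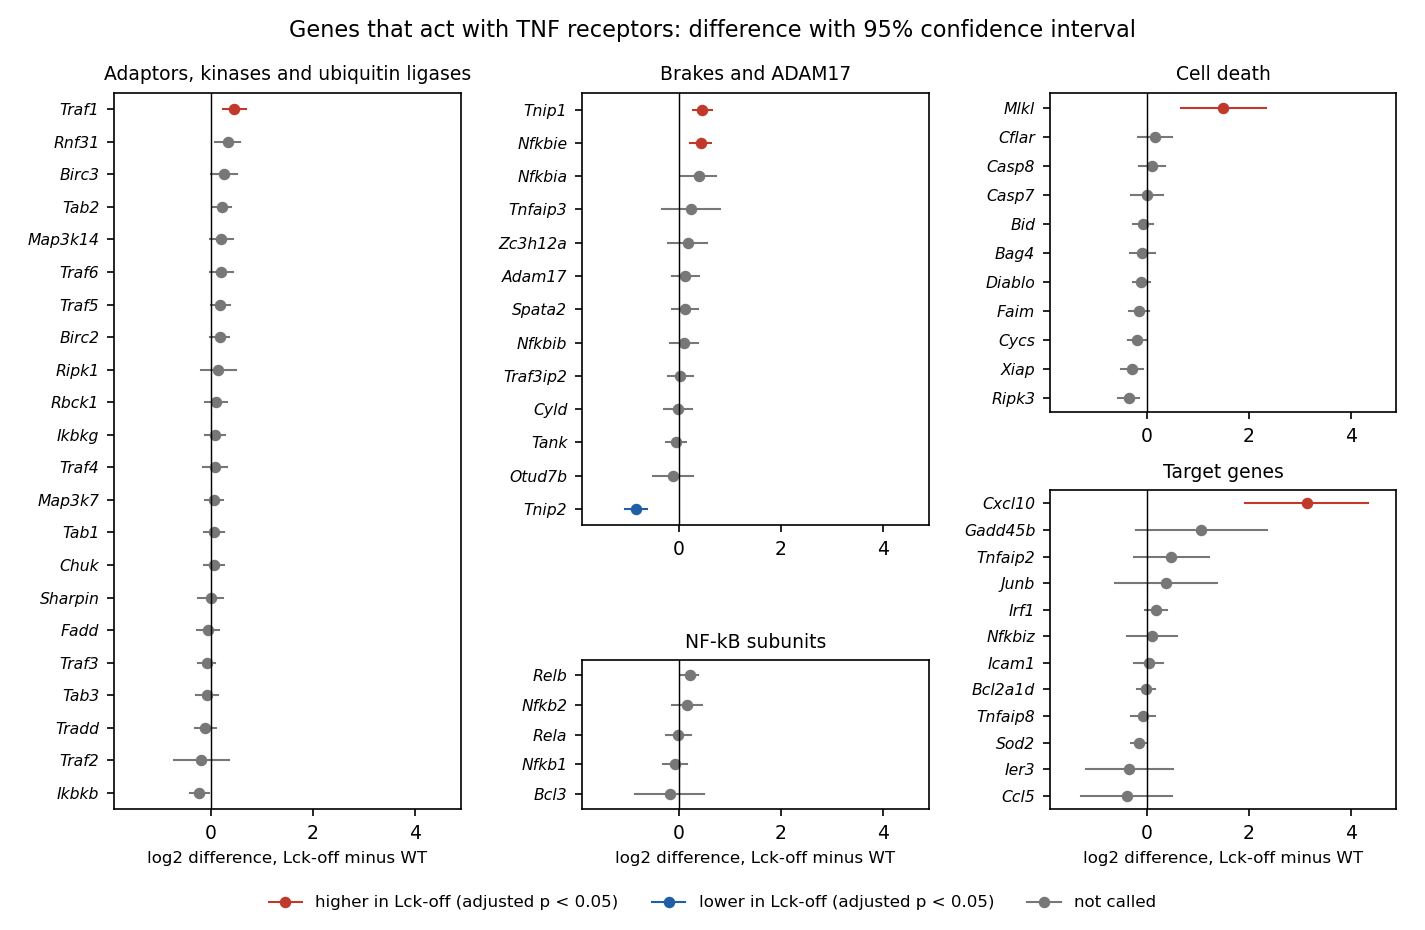
Difference in level between Lck-off and WT (log2, x axis) for 63 of the 64 measured genes of 5 lists that act with TNF receptors; points are limma estimates from 3 WT and 4 Lck-off arrays, bars 95% confidence intervals, and colours mark calls at an adjusted p under 0.05. The 6 called genes are Traf1, Tnip1, Nfkbie, Mlkl and Cxcl10, which were higher, and Tnip2, which was lower.

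Markers of other cells were read beside the ligands and target genes that were higher. The summed levels are on the same linear scale as for B cells. Dendritic cell markers summed to 291 to 322 in WT and 361 to 433 in Lck-off, and 1 of 10 measured was called, higher; this was Bst2, which interferons also induce. Without Bst2 the sums were 265 to 284 and 273 to 336, and overlapped. Most of each sum was Siglech, with mean levels of 8.00 in WT and 8.10 in Lck-off (difference 0.10, SE 0.09). The sums therefore say little about the dimmer markers of this list. The class II genes H2-Ab1 and H2-Eb1 differed by 1.40 (SE 0.58) and 1.26 (SE 0.53), at an unadjusted p under 0.05, and were not called. Macrophage, monocyte and neutrophil markers summed to 4.61 to 7.43 in WT and 6.69 to 9.44 in Lck-off, and the groups overlapped. Of 15 markers 7 were measured. All 7 were higher in mean, with a median difference of 0.64. C1qb was called, and 4 had an unadjusted p under 0.05 by limma. C1qc and C1qa, both among these 4, differed by 1.75 (SE 0.52) and 1.38 (SE 0.37), each well above background on 1 WT array and 4 Lck-off arrays. They passed the filter on dim probes through the Lck-off arrays, where they were higher, so they give no support to a difference. The count of 7 higher in mean and the median of 0.64 include C1qa and C1qc. NK cell markers summed to 2.44 to 4.25 and 13.5 to 19.8, with 2 of 8 measured; most of this was Gzma, a granzyme that CD8 T cells can also make, which rose by 2.77 (SE 0.25, limma adjusted p = 0.00106). Markers of CD4 and regulatory T cells summed to 16.9 to 17.8 and 18.3 to 21.7, with 5 of 6 measured and Ikzf2 lower (well above background on 3 WT and 2 Lck-off arrays). Most of this sum was Zbtb7b, which differed by 0.18 (SE 0.08) and was not called. Cd4 and Foxp3 differed by 0.04 (SE 0.11) and 0.01 (SE 0.21). Il2ra was well above background on all 4 Lck-off arrays and on 0 WT arrays. It passed the filter on dim probes through the Lck-off arrays, where it was higher, so it gives no support to a difference. Stromal markers summed to 2.14 to 2.34 and 2.18 to 3.04, with 5 of 11 measured. Pdgfrb, the called stromal gene, was well above background on all 3 WT arrays and on 0 Lck-off arrays. It passed the filter through the WT arrays, where it was higher, so its call gives no support to a difference. No array was well above background for Cd209a and Clec9a of dendritic cells, Fcgr3 of macrophages, Klrk1 of NK cells, Ctla4 of regulatory T cells, or Cdh5, Col3a1, Cxcl13, Lyve1 and Pdgfra of stroma. The part of other cells in the results for ligands and targets was not tested.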

How the data were processed

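Intensity values were made by the authors with Feature Extraction 10.7.3.1, per the file headers, from array design 028005. Probe positions in the files are on mm9. Per the file headers the processed intensity had the background subtracted and a spatial trend removed array by array. The other columns used, per the file headers, are the type of spot and flags (non-uniform, saturated, well above background). Values of the deposited table are in log2, as found by setting them against the scanner values (array medians from 6.38 to 6.39); limma is named in the submitters' processing notes, without further steps.

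From each log2 processed intensity the 75th percentile of the array's non-control spots was subtracted. Non-uniform spots were left out and repeated spots averaged. A probe was kept if at least 3 of 7 arrays were well above background (25578 of 55681). Each gene was read by its brightest kept probe. Lck-off was compared with WT with limma 3.58.1 (R 4.3.3, version 1.17.8 of data.table), two-sided, with Benjamini-Hochberg adjustment over 18231 genes and a threshold of 0.05. The median SE was 0.11; the number of arrays limits the precision. The script was tested on simulated data. Exact permutation tests used all 35 splits of the arrays. Motifs and figures were made with Python 3.11.15, pandas 2.3.3 and matplotlib 3.10.9. All 40 member names were current RefSeq symbols on GRCm38.p6. Exon positions of the probes were not analysed here. Some list genes are not reported here by name.

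Named with values on each array were the members and pathway genes called, the 6 members next by p-value, and Lck; Tnf, Tnfrsf1a, Tnfrsf18 and Fas were added after their values were seen. Members and lists were chosen with earlier results of these data known. Alternatives were normexp background correction (offset 50), other scalings and filters, all probes averaged, the deposited table, trended and robust moderation, blocks by replicate number or slide row, each row alone, and each array left out; population outlier spots set to missing, the fit over all probes and the motif search were added after seeing the data.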

Additional observations from a re-analysis of the deposited data

Results flagged for a closer look

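Of 32 sets of Lck-off values examined, 2 had 1 array far from the other 3, and chance flags about 1 in 20. The Cd27 level on Lck-off replicate 1 was 4.30, against 4.05 to 4.06 on the others. The Tnfrsf4 level on Lck-off replicate 3 was 2.33, against 2.54 to 2.58.

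Some dim probes outside the tested set were well above background on 1 Lck-off array and on no WT array. The Tnfrsf9 probe from transcript base 1023 read -3.48 on Lck-off replicate 3, within the WT readings of -3.67 to -3.37. The Tnfrsf13b probe from transcript base 175 read -3.89 on Lck-off replicate 3, against -4.80 to -4.41 in WT. The Tnfsf15 probe read -3.71 on Lck-off replicate 2, against -4.90 to -3.84 in WT.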

How the results depend on the processing

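None of the called members and called pathway genes, nor Lck, changed direction under any alternative. The called genes near Tnf outside the family and the called marker genes were not followed under the alternatives. Among the uncalled genes the small difference of Tnfrsf1a turned to -0.0074 with quantile normalization, -0.013 with scaling over probes above background on all arrays, -0.0093 with all probes averaged, -0.0017 with the row block and -0.023 in row 1 alone, and to -0.062, -0.056 and -0.0017 without WT replicate 1, Lck-off replicate 1 or Lck-off replicate 3, in a range from -0.062 to 0.067 with 1 array left out. Tnfrsf18 turned to 0.0047 in row 1 alone and 0.0069 without WT replicate 1 (range -0.073 to 0.0069), and Fas to -0.033 in row 2 alone and -0.0028 without Lck-off replicate 3 (range -0.0028 to 0.094). The other uncalled members given on each array kept their direction. Leaving out 1 array gave 1 to 3 members called higher and 2 to 3 lower, 449 to 646 genes higher and 473 to 759 lower, and 1 to 5 pathway genes higher and 1 to 3 lower. Lta, Tnfrsf13c and Tnfrsf25 were called each time. The median member difference ran from 0.03 to 0.13 with 1 array left out and from 0.05 to 0.11 under the other settings. Members called higher numbered 5 (Cd27, Lta, Ltb, Tnfrsf23 and Tnfsf8) with normexp, probes above background on all 7 arrays, the authors' deposited table, or trended and robust moderation, with the same 4 lower. Cd27 was also called with quantile normalization, with scaling over probes above background on all arrays, and with all probes averaged. Pathway genes called lower numbered 2 with normexp, quantile normalization, scaling over probes above background on all arrays, the deposited table or the row block, and 3 with probes above background on all 7 arrays or with trended and robust moderation.

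With no filter on dim probes, 358 genes were called higher and 359 lower, with 0 members and 1 pathway gene higher. The members called lower were 2, Tnfrsf13c and Tnfsf11, which was not well above background on any array. At an unadjusted p under 0.05 by limma, 8 members were higher and 5 lower, and 1751 genes were higher and 1937 lower. Same-numbered samples deviated together with r of 0.106, 0.0493 and -0.00831, so the replicate numbers, taken from the sample titles, were not used to pair samples; the array files number the WT samples differently. With the replicate block, 193 genes were higher and 181 lower, with 0 members higher, 1 lower (Tnfrsf13c) and 0 pathway genes in either direction. At an unadjusted p under 0.05 by limma, 6 members were higher and 4 lower, and 8 pathway genes were higher and 3 lower. Over all genes 1390 were higher and 1428 lower at that threshold. In row 1 of the slide alone, 85 genes were higher and 20 lower, with 0 members and 0 pathway genes called (unadjusted by limma, 2 members higher and 4 lower, 3 pathway genes higher and 2 lower). In row 2 alone, 0 genes were called in either direction by limma, members and pathway genes included (0), and 1076 were higher and 1635 lower at an unadjusted p under 0.05. Both rows hold fewer arrays than the whole comparison. The cause of the other changes was not tested. The Tnfrsf13c, Mlkl and Cxcl10 differences were smaller with normexp and in the authors' deposited table, and the cause was not tested.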
